A study of Mus musculus with 9 samples.

Results

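The DNA replication and S phase genes described here are 46 mouse genes, chosen by symbol and matched to the Ensembl identifiers of the count tables through GENCODE M21. They are 46 of 46603 identifiers in the tables, and all 46 were among the 14176 genes with enough counts to be tested. Their transcripts were measured by RNA-seq in mouse embryonic fibroblasts, connective tissue cells grown from BALB/c embryos of 10.5 days. Every library came from cells with a knockout of Actb, the gene of the cytoskeletal protein beta-actin, the mock controls included, and no library with intact Actb was analysed here. The study asked how the transcriptome of these cells changed after stimulation with mimics of viral nucleic acid. One group was transfected with poly(dA:dT), which mimics viral double-stranded DNA, and another with poly(I:C), which mimics viral double-stranded RNA, each at 10 µg/ml with Lipofectamine 2000 in Opti-MEM for 6 h. Mock cells received the transfection reagent alone. Each group has 3 libraries. The labels do not say whether these came from separate cultures, nor whether the knockout line is a single clone, so the p-values measure the spread between these libraries, which may be technical.

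Before S phase, the origin recognition complex, Cdc6 and Cdt1 load the ring-shaped MCM helicase onto DNA, a step called licensing. At the start of S phase Cdc45 and the GINS complex join the MCM ring to form the active helicase, DNA polymerase alpha with primase lays down primers, and polymerases epsilon and delta extend them on the sliding clamp PCNA, which replication factor C loads. Ribonucleotide reductase, thymidylate synthase and thymidine kinase supply the nucleotides, cyclin E with its kinase drives entry into S phase, and E2F transcription factors activate or repress most of these genes through the cell cycle. These genes are high in proliferating fibroblasts and low in resting ones.

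The 9 libraries held between 16082772 and 29219797 counts. Levels are given as CPM, the count scaled to a common library size after correction by the trimmed mean of M values (TMM), and changes as log2 fold changes ± SE from edgeR's quasi-likelihood test, with Benjamini-Hochberg adjustment over all 14176 genes. A gene is called higher or lower at an adjusted p under 0.05. Where a gene has a pair of changes with no agent named, the first is for poly(dA:dT) and the second for poly(I:C), both against mock. Actb stood between 29.1 and 34.6 CPM in the 9 libraries, which does not check the labels without an intact line beside them. Of 12 fibroblast markers, 11 had a group mean above 1 CPM in mock and with poly(dA:dT), and 10 with poly(I:C). Among them Lum was at 0 in both treated groups. The fibroblast markers summed to 7656 to 7823 CPM in the mock libraries, 7384 to 7503 CPM after poly(dA:dT) and 6559 to 6860 CPM after poly(I:C). The 6 endothelial markers summed to 1.95 to 2.62 CPM in mock, 3.70 to 4.88 CPM after poly(dA:dT) and 5.58 to 6.84 CPM after poly(I:C), with Emcn at 0 in every library. Among the macrophage markers Ptprc was at 0 in every library. The other lists had Sox2 (neural), Myod1 and Ckm (muscle) at 0 throughout, but other markers of these lists were counted. The neural markers, 3 of 6 above 1 CPM in each group, summed to 399 to 409 CPM in mock. Their sums were 361 to 391 CPM after poly(dA:dT) and 361 to 369 CPM after poly(I:C). In mock the macrophage markers summed to 10.4 to 11.3 CPM, the epithelial to 8.77 to 9.84 CPM and the muscle to 13.5 to 17.8 CPM. After poly(dA:dT) these sums were 8.35 to 8.73, 8.22 to 9.39 and 15.4 to 15.7 CPM. With poly(I:C) they were 5.64 to 7.63, 7.68 to 8.27 and 9.57 to 12.0 CPM. The part of these markers in the results below was not tested.

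Replication genes moved in small steps, further after poly(I:C) than after poly(dA:dT), and more were called higher than lower. Summed over the 46 genes, their transcripts made up 0.823% to 0.828% of the scaled counts in the mock libraries. The sums were 0.863% in each poly(dA:dT) library and 0.919% to 0.923% after poly(I:C), with no overlap between groups. This sum weighs genes by their level and does not show a rise of each gene. From mock through poly(dA:dT) to poly(I:C), mean CPM went from 444 to 540 and 596 for Uhrf1. In the same order it went from 160 to 225 and 321 for Pole, but from 440 to 410 and 369 for Rrm1. In bulk RNA, more cells in S phase and more RNA of these genes per cell cannot be told apart. After poly(dA:dT), 18 of the 46 were called higher and 9 lower, 39.1% and 19.6%, beside 26.6% and 26.2% of all genes tested. After poly(I:C), 30 were higher and 11 lower, 65.2% and 23.9%, beside 39.8% and 36.3% of all genes. Poly(I:C) set against poly(dA:dT) directly gave 27 higher and 10 lower, beside 31.3% and 32.1% of all genes. The median log2 fold change of the 46 genes was 0.03 after poly(dA:dT), 0.14 after poly(I:C) and 0.10 between the treatments, where all genes had medians of 0.01, 0.04 and 0.0042. Both treatments were compared with the same 3 mock libraries, so their changes are given side by side and not as separate evidence. The CPM ranges of the 3 libraries lay wholly above mock for 20 genes and wholly below for 10 after poly(dA:dT), beside 29.1% and 28.2% of all genes. They did so for 29 and 11 after poly(I:C), beside 40.3% and 36.5%, and for 29 and 10 between the treatments, beside 32.9% and 33.2%. Pole after poly(I:C) was the only one of the 46 to be called with a change of 2-fold or more in these 3 comparisons. Of all 14176 genes, 544 were called higher by 2-fold or more after poly(dA:dT), 1858 after poly(I:C) and 1080 between the treatments. Those called lower by 2-fold or more were 9, 148 and 58.

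The scaling factors moved with the groups. The TMM factors were 0.956 to 0.959 in mock, 1.01 after poly(dA:dT) and 1.03 to 1.04 after poly(I:C). With total counts in place of TMM, every log2 change against mock shifts up by 0.07 after poly(dA:dT) and by 0.11 after poly(I:C), and the members called after poly(dA:dT) become 29 higher and 3 lower, a split of 90.6% higher among those called where TMM gave 66.7%. All genes moved the same way with this scaling, from 50.3% to 67.7% higher among those called, at 5004 higher and 2389 lower.

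**Figure D1:**
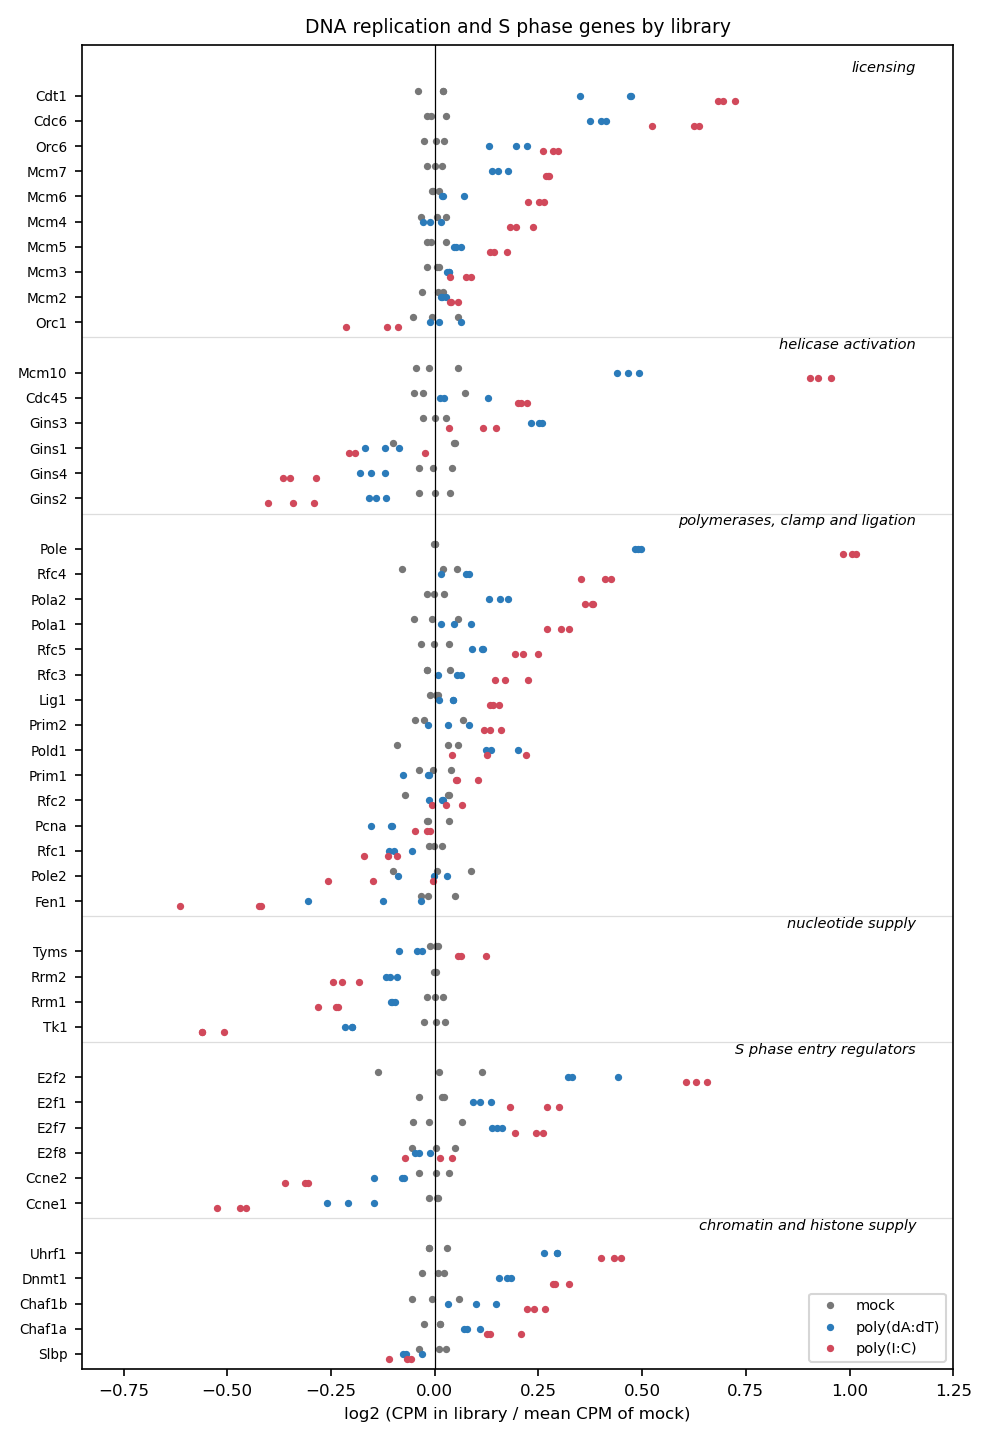
Level of each of the 46 genes in every library, as log2 of the library's CPM over the mean CPM of the mock libraries (x axis), with genes grouped by role on the y axis and points coloured by group. Pole, Mcm10, Cdt1, Cdc6 and E2f2 lie farthest to the right after poly(I:C), and Tk1, Ccne1 and Fen1 farthest to the left.

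The factors that load the helicase rose most plainly among the licensing genes. Of the 10 licensing genes, 5 were higher and none lower after poly(dA:dT), and 9 were higher and 1 lower after poly(I:C). These are 50% and 0%, and 90% and 10%, beside 26.6% and 26.2%, and 39.8% and 36.3%, of all genes. Between the treatments, poly(I:C) had 7 higher and 1 lower, 70% and 10%, beside 31.3% and 32.1% of all genes. Cdt1 (ENSMUSG00000006585, chr8:122568015-122573554 on GRCm38, plus strand), which brings the MCM ring to the origin, measured 168, 168 and 161 CPM in the mock libraries, 229, 229 and 211 CPM after poly(dA:dT) and 267, 265 and 273 CPM after poly(I:C). The 3 groups did not overlap and followed the order mock, poly(dA:dT), poly(I:C). The log2 changes of Cdt1 were 0.43 ± 0.03 (SE), adjusted p = 2.43e-32, after poly(dA:dT), and 0.70 ± 0.03 (SE), adjusted p = 1.07e-55, after poly(I:C), and the direct difference between the treatments was 0.27 ± 0.03 (SE), adjusted p = 3.07e-18.

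Cdc6, the ATPase that works beside Cdt1, measured 101, 102 and 104 CPM in the mock libraries, 135, 136 and 133 CPM after poly(dA:dT) and 159, 158 and 147 CPM after poly(I:C). Its groups again did not overlap. Cdc6 changed by 0.40 ± 0.03 (SE), adjusted p = 1.52e-24, after poly(dA:dT) and by 0.60 ± 0.03 (SE), adjusted p = 3.57e-42, after poly(I:C), with 0.20 ± 0.03 (SE), adjusted p = 1.4e-09, between the treatments. A stretch of 1528 bases of Cdc6 is 95.2% identical to Gm9430. Orc6, a subunit of the origin recognition complex, rose from 158 ± 2.68 CPM (SD, n = 3) in mock to 179 ± 5.80 CPM after poly(dA:dT) and 192 ± 2.49 CPM after poly(I:C). Orc1, the subunit whose level follows the cell cycle, did not: its log2 change was 0.02 (adjusted p = 0.752) after poly(dA:dT) and -0.13 (adjusted p = 0.0247) after poly(I:C). That fall of Orc1 rests on single libraries, with an adjusted p of 0.113 without mock library 2 and 0.112 without poly(I:C) library 3. With total counts its change after poly(I:C) was -0.02 (adjusted p = 0.772).

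The 6 subunits of the MCM ring had smaller changes than Cdt1 and Cdc6. Mcm2 measured 491, 496 and 478 CPM in the mock libraries, 494, 498 and 494 CPM after poly(dA:dT) and 502, 501 and 508 CPM after poly(I:C). The mock and poly(dA:dT) libraries overlapped, and the poly(I:C) libraries lay just above them. Its log2 change of 0.04 (adjusted p = 0.0465) after poly(I:C) lost its call in 5 of the 6 fits that left out 1 library, with an adjusted p of 0.0843 without mock library 1, 0.339 without mock library 3, 0.0766 without poly(I:C) library 1, 0.0597 without poly(I:C) library 2 and 0.129 without poly(I:C) library 3, and with the replicate number as a block, at 0.0592. After poly(I:C) the other subunits rose by 0.07 (Mcm3), 0.21 (Mcm4), 0.15 (Mcm5), 0.25 (Mcm6) and 0.27 (Mcm7) on the log2 scale. A stretch of 2157 bases of Mcm7 is 97.7% identical to Gm5487, and 12.6% of its exon bases are shared with other genes. After poly(dA:dT) only Mcm5, at 0.05 (adjusted p = 0.0176), and Mcm7, at 0.15 (adjusted p = 1.43e-10), were called among the 6. The Mcm5 call had an adjusted p of 0.12 without mock library 2, 0.0519 without mock library 3 and 0.0776 without poly(dA:dT) library 3. Mcm4 and Mcm6 were not called after poly(dA:dT), at -0.01 ± 0.02 and 0.04 ± 0.02, and differed between the treatments by 0.21 (adjusted p = 1.11e-16) and 0.21 (adjusted p = 2.8e-17).

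Promoter sequence is shown for 6 genes because the letters of 4 E2F binding motifs, searched as exact strings, were present in some genes that rose. None of these strings was in the windows of Mcm10, Tk1 and Ccne1, which were among those that moved most. The 6 were chosen after these values were seen. RefSeq windows of 300 bases on GRCm38.p6, from 250 bases before to 50 after the annotated start, matched 38 of the 46 genes. Mcm4, Gins1, Gins2, Gins4, Prim2, Pole, Rfc2 and Ccne2 had no window in the table. The stretches below are 160 bases each, on the gene's strand and outside annotated exons. Those of Mcm6, Mcm5, Pola1 and Mcm10 run up to the start. Those of Tk1 and Ccne1 lie farther upstream and leave out the bases next to the start, because annotated exons reach into that part. They lie at chr1:128359706-128359865 (Mcm6, minus strand), chr8:75109349-75109508 (Mcm5, plus strand), chrX:93632156-93632315 (Pola1, minus strand), chr2:5012792-5012951 (Mcm10, minus strand), chr11:117826093-117826252 (Tk1, minus strand) and chr7:38107535-38107694 (Ccne1, minus strand). Capitals mark matches to TTTCCCGC, TTTGGCGC, TTTCGCGC or TTTGCCGC on either strand, and matches may overlap.
Mcm6: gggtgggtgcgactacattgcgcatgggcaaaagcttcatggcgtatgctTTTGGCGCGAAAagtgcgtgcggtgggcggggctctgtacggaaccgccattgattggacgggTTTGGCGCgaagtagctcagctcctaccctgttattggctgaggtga
Mcm5: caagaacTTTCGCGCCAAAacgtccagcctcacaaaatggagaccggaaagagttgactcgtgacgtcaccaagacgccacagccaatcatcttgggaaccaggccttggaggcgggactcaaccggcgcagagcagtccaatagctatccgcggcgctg
Pola1: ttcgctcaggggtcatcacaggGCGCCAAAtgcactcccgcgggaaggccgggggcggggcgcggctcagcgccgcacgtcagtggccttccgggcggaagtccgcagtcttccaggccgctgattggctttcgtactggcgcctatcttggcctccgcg
Mcm10: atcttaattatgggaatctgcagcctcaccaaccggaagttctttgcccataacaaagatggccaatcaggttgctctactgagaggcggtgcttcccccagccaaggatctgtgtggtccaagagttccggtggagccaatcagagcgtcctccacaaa
Tk1: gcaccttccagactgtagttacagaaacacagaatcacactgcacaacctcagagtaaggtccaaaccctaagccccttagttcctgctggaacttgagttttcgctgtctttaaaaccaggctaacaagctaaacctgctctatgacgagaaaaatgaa
Ccne1: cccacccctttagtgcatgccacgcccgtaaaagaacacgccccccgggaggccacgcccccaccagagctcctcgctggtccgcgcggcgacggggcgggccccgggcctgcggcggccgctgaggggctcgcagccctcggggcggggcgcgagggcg

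Mcm6 held 3 matches, at positions -110, -106 and -47 from its start, Mcm5 held 2 overlapping ones, at -153 and -149, and Pola1 held 1, at -138. No match lay in the printed stretches of Mcm10, which rose, or of Tk1 and Ccne1, which fell. Only 4 exact strings were searched, so the lack of a match does not show that a gene has no E2F site. Over all windows, 17 of the 38 genes held at least 1 match (44.7%), where 704 of 27025 genes in the table (2.60%) and 488 of 10464 tested genes (4.66%) did. The 17 were Cdc6, Cdt1, Dnmt1, E2f2, E2f7, Gins3, Lig1, Mcm3, Mcm5, Mcm6, Mcm7, Orc1, Pola1, Pold1, Pole2, Rfc3 and Uhrf1. Among genes with a window, 15 of 27 called higher after poly(I:C) held the letters, as did 1 of 8 called lower (Orc1) and 1 of 3 not called (Pole2). Of the genes without a window, Mcm4, Prim2 and Pole were called higher after poly(I:C), and Gins2, Gins4 and Ccne2 lower. Among the 8, the calls of Orc1, Rfc1 and Slbp did not hold with total counts. A link between letters and direction was not tested. The CCAAT letters, on either strand, were in 24 of the 38 windows' genes (63.2%) in 41.1% of all genes in the table and in 43.1% of the tested genes. GGGCGG was in 81.6%, 38.2% and 68.8%, in the same order. TTTGAA, the letters of the cell cycle homology region that marks many G2 and M phase genes, was in 18.4% of the 38 genes, in 20.2% of all genes in the table and in 14.2% of the tested genes. A match describes letters in a window and not a site in use.

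Among the genes that turn the loaded ring into a working helicase, Mcm10 rose and the GINS genes went in different directions. Mcm10 (ENSMUSG00000026669, chr2:4989714-5012791 on GRCm38, minus strand), which helps to open the ring at the origin, measured 105, 107 and 113 CPM in the mock libraries, 152, 147 and 149.6 CPM after poly(dA:dT) and 210.1, 203 and 206 CPM after poly(I:C). The 3 groups did not overlap, and the poly(I:C) libraries stood highest. Its log2 changes were 0.47 ± 0.03 (SE), adjusted p = 5.03e-32, after poly(dA:dT), and 0.93 ± 0.03 (SE), adjusted p = 2.18e-68, after poly(I:C), with 0.46 ± 0.03 (SE), adjusted p = 2.02e-34, between the treatments. Cdc45, which joins the ring with GINS, rose by 0.21 (adjusted p = 7.7e-09) after poly(I:C), and its change of 0.06 (adjusted p = 0.156) after poly(dA:dT) was not called, but was at 0.09 (adjusted p = 0.0286) without mock library 2.

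The transcripts of the 4 GINS subunits went up, went down or were not called. Gins4 measured 82.9, 81.0 and 85.6 CPM in the mock libraries, 73.5, 74.8 and 76.5 CPM after poly(dA:dT) and 65.3, 68.2 and 64.6 CPM after poly(I:C), so both treated groups lay below mock. It fell by 0.15 ± 0.04 (SE), adjusted p = 0.000302, after poly(dA:dT) on the log2 scale, where total counts gave -0.07 (adjusted p = 0.0858), and its change after poly(I:C) was -0.33 (adjusted p = 2.97e-14). Gins2 changed by -0.14 (adjusted p = 1.69e-05) and -0.35 (adjusted p = 1.41e-21), but 67.3% of its exon bases are shared with exons of Gse1 in the annotation, so its counts are uncertain. Gins3 was highest after poly(dA:dT), at 54.3, 53.3 and 54.1 CPM, where mock held 45.4, 44.6 and 46.3 CPM and poly(I:C) 50.3, 49.2 and 46.5 CPM. The change of Gins3 was 0.25 (adjusted p = 5.96e-07) after poly(dA:dT) and -0.14 (adjusted p = 0.0038) between the treatments. Its call after poly(I:C), at 0.11 (adjusted p = 0.0333), had an adjusted p of 0.074 without mock library 1, 0.118 without mock library 2, 0.158 without poly(I:C) library 1 and 0.0894 without poly(I:C) library 2. Gins1 was not called in these 3 comparisons, with -0.12 (adjusted p = 0.128) and -0.13 (adjusted p = 0.0674) against mock. It was called lower at -0.17 (adjusted p = 0.0472) without mock library 1 after poly(dA:dT), and at -0.19 (adjusted p = 0.0194) without mock library 1 and -0.20 (adjusted p = 0.0172) without poly(I:C) library 1 after poly(I:C). Over the 6 helicase activation genes, 2 were higher and 2 lower after poly(dA:dT), and 3 were higher and 2 lower after poly(I:C). These are 33.3% and 33.3%, and 50% and 33.3%, beside 26.6% and 26.2%, and 39.8% and 36.3%, of all genes.

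Pole (ENSMUSG00000007080, chr5:110286306-110337474 on GRCm38, plus strand), the catalytic subunit of the leading-strand polymerase epsilon, showed the largest change of the 46 genes in all 3 comparisons. It measured 160.2, 160.0 and 160.3 CPM in the mock libraries, 226, 225 and 224 CPM after poly(dA:dT) and 317, 324 and 322 CPM after poly(I:C). The libraries of each group lay within a few CPM of each other, and the groups were far apart. Its log2 changes were 0.49 ± 0.03 (SE), adjusted p = 8.55e-41, after poly(dA:dT), 1.00 ± 0.02 (SE), adjusted p = 7.17e-82, after poly(I:C), and 0.51 ± 0.02 (SE), adjusted p = 5.87e-46, between the treatments. Pole2, the second subunit of the same enzyme, was not called, at -0.02 (adjusted p = 0.798) and -0.13 (adjusted p = 0.0892) against mock. After poly(I:C), however, it was called lower when 1 library was left out, at -0.18 (adjusted p = 0.0294) without mock library 2 and -0.20 (adjusted p = 0.0188) without poly(I:C) library 2.

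The genes of polymerase alpha and primase rose after poly(I:C) and, apart from Pola2, were not called after poly(dA:dT). Pola1, the catalytic subunit, changed by 0.30 (adjusted p = 1.67e-18) after poly(I:C) and 0.05 (adjusted p = 0.116) after poly(dA:dT), where it was called at 0.08 (adjusted p = 0.0289) without mock library 3. Pola2, its partner, changed by 0.15 (adjusted p = 1.07e-07) and 0.37 (adjusted p = 1.47e-29). The primase genes Prim1 and Prim2 moved by 0.07 (adjusted p = 0.0197) and 0.13 (adjusted p = 0.000387) after poly(I:C). The Prim1 call had an adjusted p of 0.0601 without mock library 1, 0.16 without mock library 2 and 0.14 without poly(I:C) library 2. Pold1, the catalytic subunit of polymerase delta, rose after both agents, by 0.15 (adjusted p = 0.00023) and 0.12 (adjusted p = 0.00176), and its difference between them was -0.03 ± 0.04, not called. After poly(I:C) the Pold1 call had an adjusted p of 0.0555 without mock library 3 and 0.0621 without poly(I:C) library 3.

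Pcna, the sliding clamp, fell after poly(dA:dT) but passed no threshold after poly(I:C). It measured 362, 361 and 375 CPM in the mock libraries, 340.4, 329 and 341 CPM after poly(dA:dT) and 363, 362 and 354 CPM after poly(I:C). The poly(dA:dT) libraries lay below the others, and the poly(I:C) libraries overlapped mock. The log2 changes of Pcna were -0.12 ± 0.02 (SE), adjusted p = 1.23e-06, after poly(dA:dT), -0.02 ± 0.02 (SE), adjusted p = 0.318, after poly(I:C), and 0.09 ± 0.02 (SE), adjusted p = 9.94e-05, between the treatments. With total counts these became -0.04 (adjusted p = 0.078) and 0.09 (adjusted p = 0.000132) against mock. A stretch of 781 bases of Pcna is 99.2% identical to the pseudogene Pcna-ps2, which the counting could have split from it.

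The clamp loader genes went apart by subunit. Rfc4 measured 47.2, 44.1 and 48.3 CPM in the mock libraries, 47.0, 49.3 and 49.1 CPM after poly(dA:dT) and 59.3, 61.8 and 62.4 CPM after poly(I:C), with the poly(I:C) libraries above the rest. Its changes were 0.06 ± 0.05 (SE), adjusted p = 0.26, after poly(dA:dT), 0.40 ± 0.04 (SE), adjusted p = 4.38e-15, after poly(I:C), and 0.34 ± 0.04 (SE), adjusted p = 2.04e-11, between the treatments. Rfc3 and Rfc5 also rose after poly(I:C), by 0.18 and 0.22 on the log2 scale. Rfc1, the large subunit, changed by -0.09 (adjusted p = 0.00149) and -0.12 (adjusted p = 5e-06), and neither call held with total counts, at -0.01 (adjusted p = 0.688) and -0.01 (adjusted p = 0.788). Rfc2 passed the test in none of the 3 comparisons, at 0.0044 ± 0.03 and 0.02 ± 0.03 against mock. With total counts it was called higher, at 0.08 (adjusted p = 0.0175) and 0.14 (adjusted p = 1.18e-05).

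Of the genes that finish Okazaki fragments, Lig1, the ligase, rose by 0.14 (adjusted p = 1.03e-06) after poly(I:C). Fen1, the flap nuclease, measured 10.4, 10.3 and 10.9 CPM in the mock libraries, 8.53, 9.67 and 10.3 CPM after poly(dA:dT) and 6.89, 7.89 and 7.86 CPM after poly(I:C), and the poly(I:C) libraries lay below mock. It changed by -0.48 ± 0.10 (SE), adjusted p = 1.29e-05, after poly(I:C), by -0.14 (adjusted p = 0.215) after poly(dA:dT), not called, and by -0.34 (adjusted p = 0.00336) between the treatments. In the annotation 84.2% of the exon bases of Fen1 are shared with Gm10143 and Tmem258, so its counts are uncertain. Over the 15 genes of polymerases, clamp and ligation, 4 were higher and 2 lower after poly(dA:dT), and 10 were higher and 2 lower after poly(I:C). These are 26.7% and 13.3%, and 66.7% and 13.3%, beside 26.6% and 26.2%, and 39.8% and 36.3%, of all genes.

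**Figure D2:**
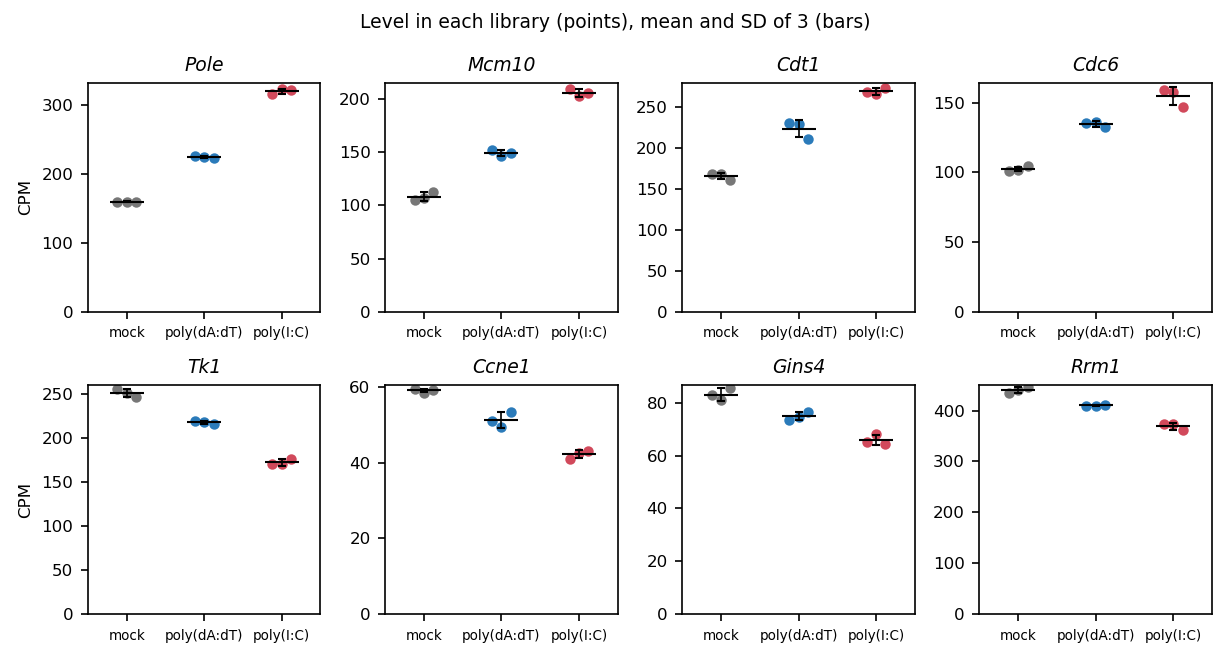
CPM in each library (points) with the mean and SD of 3 libraries (bars) for Pole, Mcm10, Cdt1, Cdc6, Tk1, Ccne1, Gins4 and Rrm1 in mock, poly(dA:dT) and poly(I:C) cells, with each y axis starting at 0. The upper 4 genes climb from mock through poly(dA:dT) to poly(I:C), and the lower 4 decline in the same order.

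Nucleotide supply genes, apart from Tyms, fell. Of the 4 genes, 3 were lower and none higher after poly(dA:dT), and 3 were lower and 1 higher after poly(I:C). The shares higher and lower are 0% and 75%, and 25% and 75%, beside 26.6% and 26.2%, and 39.8% and 36.3%, of all genes. Tk1 (ENSMUSG00000025574, chr11:117815526-117826092 on GRCm38, minus strand), the thymidine kinase of dividing cells, measured 256, 252 and 247 CPM in the mock libraries, 219, 219 and 217 CPM after poly(dA:dT) and 170.4, 170.5 and 177 CPM after poly(I:C). Its groups did not overlap and declined in the order mock, poly(dA:dT), poly(I:C). The log2 changes of Tk1 were -0.21 ± 0.02 (SE), adjusted p = 5.33e-13, after poly(dA:dT), -0.55 ± 0.03 (SE), adjusted p = 2.47e-46, after poly(I:C), and -0.34 ± 0.03 (SE), adjusted p = 2.47e-25, between the treatments.

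Rrm2, the S phase subunit of ribonucleotide reductase, measured 189.7, 189 and 189 CPM in the mock libraries, 175, 176 and 178 CPM after poly(dA:dT) and 167, 162 and 159.8 CPM after poly(I:C). Rrm1, the large subunit, measured 434, 439.7 and 446 CPM in the mock libraries, 409.6, 409 and 412 CPM after poly(dA:dT) and 373, 374 and 362 CPM after poly(I:C). Both went down in the same order as Tk1. Rrm2 changed by -0.10 ± 0.03 (SE), adjusted p = 0.000378, after poly(dA:dT), and by -0.22 ± 0.03 (SE), adjusted p = 1.34e-12, after poly(I:C). Rrm1 changed by -0.10 (adjusted p = 1.74e-05) and -0.25 (adjusted p = 3.11e-22). With total counts neither was called after poly(dA:dT), at -0.03 (adjusted p = 0.346) for Rrm2 and -0.03 (adjusted p = 0.306) for Rrm1, while the calls after poly(I:C) held. Tyms, thymidylate synthase, went the other way after poly(I:C), at 0.08 (adjusted p = 0.00226), with an adjusted p of 0.0561 without poly(I:C) library 2, and was not called after poly(dA:dT), at -0.05 (adjusted p = 0.0693).

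Regulators of S phase entry split between the cyclins, which fell, and the E2F genes, which rose or were not called. Ccne1 (ENSMUSG00000002068, chr7:38097984-38107534 on GRCm38, minus strand), a cyclin E gene, measured 59.4, 58.6 and 59.3 CPM in the mock libraries, 51.1, 49.3 and 53.4 CPM after poly(dA:dT) and 41.1, 42.7 and 43.1 CPM after poly(I:C), with no overlap between the groups. Its log2 changes were -0.20 ± 0.04 (SE), adjusted p = 1.85e-05, after poly(dA:dT), -0.48 ± 0.05 (SE), adjusted p = 1.38e-19, after poly(I:C), and -0.28 ± 0.05 (SE), adjusted p = 5.47e-08, between the treatments. Ccne2, the other cyclin E gene, measured 77.8, 80.0 and 81.8 CPM in the mock libraries, 75.8, 72.2 and 75.6 CPM after poly(dA:dT) and 64.2, 64.6 and 62.2 CPM after poly(I:C). It changed by -0.32 ± 0.04 (SE), adjusted p = 1.63e-13, after poly(I:C), and by -0.10 ± 0.04 (SE), adjusted p = 0.0205, after poly(dA:dT). The latter call of Ccne2 had an adjusted p of 0.0507 without mock library 2, 0.0766 without mock library 3 and 0.133 without poly(dA:dT) library 2, and total counts gave -0.02 (adjusted p = 0.624).

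E2f2, an activator E2F, measured 17.2, 18.5 and 15.5 CPM in the mock libraries, 21.3, 21.5 and 23.2 CPM after poly(dA:dT) and 26.9, 25.9 and 26.4 CPM after poly(I:C) and was the lowest of the 46 genes per length. It changed by 0.36 ± 0.07 (SE), adjusted p = 3.23e-06, after poly(dA:dT), and by 0.62 ± 0.07 (SE), adjusted p = 2.13e-15, after poly(I:C). E2f1, another activator E2F, measured 77.7, 74.8 and 77.9 CPM in the mock libraries, 84.4, 82.9 and 81.9 CPM after poly(dA:dT) and 94.5, 87.1 and 92.6 CPM after poly(I:C). E2f1 changed by 0.11 ± 0.04 (SE), adjusted p = 0.00567, and 0.25 ± 0.04 (SE), adjusted p = 4.85e-10, in the same order. Its call after poly(dA:dT) had an adjusted p of 0.053 without mock library 2. E2f7, a repressor, measured 64.1, 65.9 and 69.6 CPM in the mock libraries, 74.4, 73.2 and 73.8 CPM after poly(dA:dT) and 79.7, 78.8 and 76.1 CPM after poly(I:C). The changes of E2f7 were 0.15 ± 0.04 (SE), adjusted p = 0.000299, and 0.24 ± 0.04 (SE), adjusted p = 1.22e-08, against mock. Its difference between the treatments, 0.09 (adjusted p = 0.0431), had an adjusted p of 0.0726 without poly(dA:dT) library 1, 0.121 without poly(dA:dT) library 2, 0.0934 without poly(dA:dT) library 3, 0.155 without poly(I:C) library 1 and 0.108 without poly(I:C) library 2. E2f8, the related repressor, measured 53.1, 49.4 and 51.4 CPM in the mock libraries, 49.9, 50.9 and 49.6 CPM after poly(dA:dT) and 52.8, 48.8 and 51.7 CPM after poly(I:C), with overlapping groups. E2f8 was not called, at -0.03 ± 0.04 (SE), adjusted p = 0.559, and -0.01 ± 0.05 (SE), adjusted p = 0.858, against mock, and total counts gave 0.11 (adjusted p = 0.0292) after poly(I:C).

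Genes that rebuild chromatin behind the fork rose after both agents, and the histone mRNA factor Slbp did not. Of these 5 genes, 4 were higher and none lower after poly(dA:dT), and 4 were higher and 1 lower after poly(I:C). As shares these are 80% and 0%, and 80% and 20%, beside 26.6% and 26.2%, and 39.8% and 36.3%, of all genes. Dnmt1, the methyltransferase that copies DNA methylation, measured 309, 300.0 and 311 CPM in the mock libraries, 346, 348 and 342 CPM after poly(dA:dT) and 374, 375 and 384 CPM after poly(I:C). Its groups did not overlap, and its log2 changes were 0.17 ± 0.02 (SE), adjusted p = 1.3e-11, after poly(dA:dT), 0.30 ± 0.02 (SE), adjusted p = 7.61e-27, after poly(I:C), and 0.13 ± 0.02 (SE), adjusted p = 1.74e-07, between the treatments. Uhrf1, which guides Dnmt1 to newly copied DNA, rose by 0.28 and 0.43 on the log2 scale, and 1590 of its bases are 98.3% identical to Gm5648. The chromatin assembly factor genes Chaf1a and Chaf1b rose by 0.09 and 0.09 after poly(dA:dT) and by 0.16 and 0.24 after poly(I:C). The Chaf1b call after poly(dA:dT) had an adjusted p of 0.143 without mock library 2 and 0.155 without poly(dA:dT) library 3, and 52.5% of the exon bases of Chaf1a are shared with Ubxn6. Slbp, which binds the stem-loop of histone mRNAs, measured 217, 209.9 and 219.6 CPM in the mock libraries, 205, 204 and 211 CPM after poly(dA:dT) and 206, 207 and 199.7 CPM after poly(I:C). Its change was -0.06 ± 0.03 (SE), adjusted p = 0.0503, after poly(dA:dT), and -0.08 ± 0.03 (SE), adjusted p = 0.00599, after poly(I:C), and total counts turned the latter to 0.04 (adjusted p = 0.167). The change after poly(dA:dT) was called at -0.08 (adjusted p = 0.0206) without mock library 2 and -0.07 (adjusted p = 0.0323) without poly(dA:dT) library 3.

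**Figure D3:**
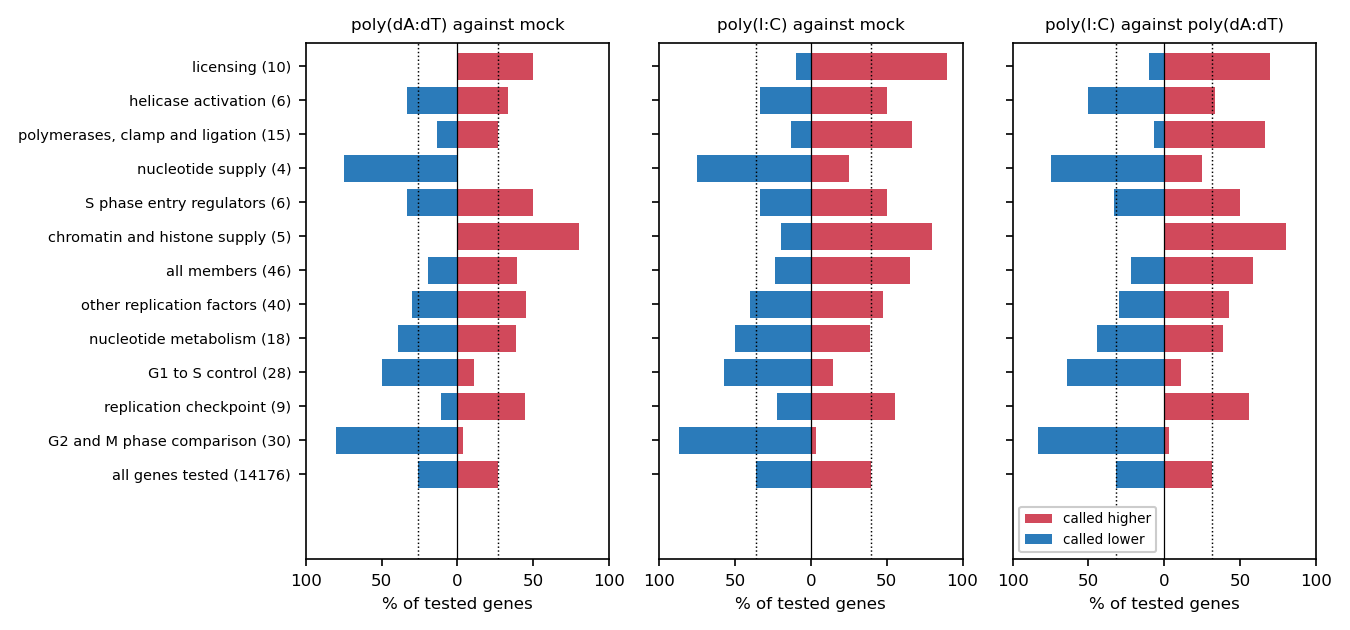
Share of tested genes called higher (right, red) and lower (left, blue) at an adjusted p under 0.05 in each list, one panel per comparison, with the number of tested genes in parentheses and dotted lines at the shares of all 14176 genes. The licensing bar reaches 90% higher after poly(I:C), and the G2 and M phase bar 86.7% lower.

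Per length, the replication genes covered a wide range in mock cells. The length counts every base in any annotated exon of a gene, over all its transcripts, so the order depends on the annotation. Pcna was highest, at 153 ± 3.23 CPM per kilobase of exon (SD, n = 3), followed by Mcm5 at 135 ± 2.32 and Mcm3 at 109.8 ± 1.20. The 6 MCM ring genes stood between 70.2 and 135 on this scale, and Mcm7 and Mcm6, at 83.1 ± 1.05 and 82.9 ± 0.459, did not differ beyond their spread. Their loaders were lower, with Cdt1 at 52.6 ± 1.26 and Cdc6 at 19.6 ± 0.323. On this scale Pole and Mcm10, the genes that rose most, stood near the bottom at 14.4 ± 0.0145 and 14.1 ± 0.504. Below them were Orc1 at 9.95 ± 0.370, Fen1 at 4.35 ± 0.130 and E2f2 at 3.50 ± 0.303. Without division by length, Pole and Mcm10 stood at 160 and 108 CPM. The level of Fen1 is uncertain, because 84.2% of its exon bases are shared with Gm10143 and Tmem258. Across the 46 genes the log2 change correlated with exon length at Spearman rho = 0.30 with poly(dA:dT) and 0.31 with poly(I:C). All 14137 tested genes with a length gave 0.08 and 0.05. With the mean mock CPM in place of length, the 46 genes gave 0.0036 and 0.10, and all genes tested gave -0.39 and -0.48. These are correlations across genes that share the same libraries, and genes are not independent replicates.

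**Figure D4:**
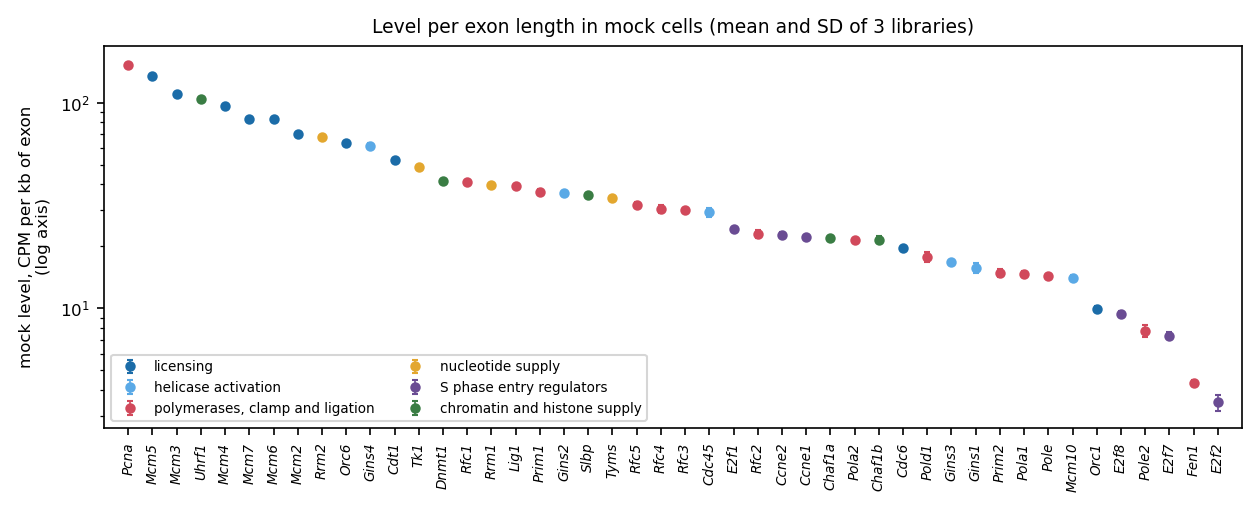
Mock level of the 46 genes as CPM per kilobase of exon on a log axis, in falling order, with points for the mean and bars for the SD of 3 libraries, coloured by role. The MCM ring genes and Pcna lie at the upper end, and Fen1 and E2f2 at the lower end. The level of Fen1 is uncertain because of its shared exons. The length counts every base in any annotated exon of a gene.

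Other replication factors, outside the 46, moved in both directions. Of 40 such genes, 18 were higher and 12 lower after poly(dA:dT), 19 were higher and 16 lower after poly(I:C), with 17 and 12 between the treatments. The shares are 45% and 30%, 47.5% and 40%, and 42.5% and 30%, beside 26.6% and 26.2%, 39.8% and 36.3%, and 31.3% and 32.1% of all genes, so those after poly(I:C) lie near the shares of all genes. Ticrr, which helps to place Cdc45 on the helicase, rose by 0.64 (adjusted p = 8.59e-27) and 1.03 (adjusted p = 2.77e-49). Recql4 and the origin recognition subunit Orc5 were next after poly(dA:dT), at 0.51 and 0.44. After poly(I:C), Mcm8, an MCM relative that acts in recombination, rose by 0.86 and Dscc1, of the alternative clamp loader, by 0.81, and both also stood above poly(dA:dT), by 0.50 and 0.53, as did Atad5, the clamp unloader, by 0.51. Rnaseh2c, a subunit of the enzyme that removes ribonucleotides from DNA, had the largest fall of this list, at -0.46 (adjusted p = 4.47e-18) and -0.96 (adjusted p = 1.75e-42).

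The wider nucleotide genes held the largest single change of the replication and cell cycle lists. Cmpk2, a mitochondrial nucleotide kinase that is induced by interferon, measured 0.465, 0.623 and 0.316 CPM in the mock libraries, 2.30, 2.61 and 2.09 CPM after poly(dA:dT) and 40.5, 38.8 and 37.2 CPM after poly(I:C). Cmpk2 changed by 2.27 ± 0.25 (SE), adjusted p = 4.43e-15, after poly(dA:dT) and by 6.33 ± 0.14 (SE), adjusted p = 1.4e-90, after poly(I:C). Of the 18 genes of this list, 7 were higher and 7 lower after poly(dA:dT), and 7 were higher and 9 lower after poly(I:C). These are 38.9% and 38.9%, and 38.9% and 50%, beside 26.6% and 26.2%, and 39.8% and 36.3%, of all genes. Tk2, the mitochondrial thymidine kinase, changed by 0.33 (adjusted p = 9.92e-07) and 0.57 (adjusted p = 8.84e-17), opposite to Tk1. Nme1 and Cmpk1, both nucleotide kinases, changed by -0.50 and -0.49 after poly(I:C), and Dctd, a deaminase that feeds thymidylate synthesis, rose by 0.24 after poly(dA:dT). Between the treatments Cad, of pyrimidine synthesis, differed by -0.51 (adjusted p = 5.38e-48) and Samhd1, which breaks down deoxynucleotides, by 0.33 (adjusted p = 5.86e-23).

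Genes of G1 to S control were called lower more often than higher. Of the 28 tested, 3 were higher and 14 lower after poly(dA:dT), 10.7% and 50%, beside 26.6% and 26.2% of all genes. With poly(I:C), 4 were higher and 16 lower, 14.3% and 57.1%, beside 39.8% and 36.3% of all genes. Cdkn1a, the p21 inhibitor of cyclin-dependent kinases, was highest after poly(dA:dT), with 85.8, 86.1 and 83.1 CPM in the mock libraries, 184, 185 and 188 CPM after poly(dA:dT) and 114, 114 and 114 CPM after poly(I:C). Between the treatments it differed by -0.70 (adjusted p = 2e-51). Myc, a driver of growth and S phase entry, changed by 0.28 (adjusted p = 3.05e-11) and 1.15 (adjusted p = 6.64e-70). Rb1, the retinoblastoma protein that holds E2F in check, rose by 0.46 and 0.72, and the inhibitors Cdkn2c and Cdkn2a changed by -0.32 and -0.36 after poly(dA:dT) and by -0.94 and -0.62 after poly(I:C). The cyclin D gene Ccnd1 was lower with poly(I:C) than with poly(dA:dT), at a log2 difference of -0.45 (adjusted p = 4.22e-21).

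The replication checkpoint, which senses stalled forks, had 4 of 9 genes higher and 1 lower after poly(dA:dT), and 5 higher and 2 lower after poly(I:C). These are 44.4% and 11.1%, and 55.6% and 22.2%, beside 26.6% and 26.2%, and 39.8% and 36.3%, of all genes. Rad9a, of the clamp that marks stalled forks, rose by 0.63 (adjusted p = 1.08e-39) and 0.97 (adjusted p = 8.56e-64). After poly(I:C), Atrip, Atr and Chek1, which encode the partner of the checkpoint kinase ATR, the kinase itself and its target, rose by 0.52, 0.48 and 0.46. After poly(dA:dT), Hus1 and Chek1 rose by 0.30 and 0.24, and Wee1, which restrains Cdk1, changed by -0.26 (adjusted p = 4.62e-05).

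G2 and M phase genes went the other way from the replication genes. Of 30 such genes, 24 were lower and 1 higher after poly(dA:dT), and 26 were lower and 1 higher after poly(I:C), with 25 lower and 1 higher between the treatments. The shares lower are 80%, 86.7% and 83.3%, beside 26.2%, 36.3% and 32.1% of all genes. The median log2 changes of the G2 and M phase genes were -0.19, -0.45 and -0.22, beside 0.03, 0.14 and 0.10 for the 46 replication genes. All genes had medians of 0.01, 0.04 and 0.0042. The 1 higher was Espl1, at 0.11, after poly(dA:dT), Mki67, at 0.11, after poly(I:C), and Mki67, at 0.13, between the treatments, named for their count and not by the rule. Cenpf, a kinetochore protein, changed by -0.42 (adjusted p = 8.11e-28) and -0.87 (adjusted p = 2.6e-59). Kif20a, a motor of cell division, Pttg1, securin, and Ccnb1, cyclin B, changed by -0.82, -0.81 and -0.78 after poly(I:C). Pttg1, Ccnb1 and Cenpe, a kinetochore motor, changed by -0.39, -0.29 and -0.27 after poly(dA:dT). The contrast between the 2 lists was not tested as a set.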

How the data were processed

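The authors deposited raw read counts per Ensembl gene, 1 table per library, 9 in all. TruSeq RNA v2 libraries were made from RNeasy total RNA, per the labels' protocols. TopHat2 2.1.0, HTSeq, DESeq2 and the build GRCm38.p4 are named in the submitters' processing notes. The sources used here do not give the annotation release, the strand option or the handling of reads over several genes. GENCODE M21 matched 46091 of 46603 identifiers. The library kit does not mark strand, so reads of overlapping genes on opposite strands cannot be told apart.

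Counts were analysed with edgeR 4.0.16 in R 4.3.3 (TMM scaling, filterByExpr by group, robust quasi-likelihood fit, 6 residual degrees of freedom, prior count 0.125), with 1 mean per group over all 9 libraries and 3 contrasts. DESeq2 1.42.0 was an alternative. Libraries of a group differed beyond sampling noise (chi-square per degree of freedom 1.64 to 2.1), so none was a copy of another. This does not tell whether they came from separate cultures. Exon lengths and shared exons come from GENCODE M21, and near-identical copies from blastn (at least 95% identity over 100 bases). Matches longer than that of Pcna were also found for Rfc5 (1020 bases, 96.2%) and Slbp (828 bases, 95.5%).

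The members and lists were chosen with earlier results of these data known. Per-library values are given for the 3 called members with the largest rise and fall in each comparison and for named key members, and up to 4 called genes with the largest change for each other list. Rrm1 and Gins3 are given per library beyond that rule, after their values were seen.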

Additional observations from a re-analysis of the deposited data

How the results depend on the processing

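The settings tried were other scalings, filters, DESeq2, fits of the compared groups alone, the replicate number as a block, and leaving out each library. Of the members called, 18 of 27 (poly(dA:dT) against mock), 32 of 41 (poly(I:C) against mock) and 33 of 37 (between the treatments) kept their call in all 14 settings. Of those not called, 14 of 19, 5 of 5 and 3 of 9 were called in at least 1 setting. Total counts in place of TMM gave 29 higher and 3 lower after poly(dA:dT), in place of 18 and 9. They also turned the log2 change of Mcm4 after poly(dA:dT) to 0.0671 and those of Slbp, Pcna and E2f8 after poly(I:C) to 0.0387, 0.0901 and 0.11. These shifts follow from the scaling, which moves all genes alike. Over all genes this setting gave 5004 higher and 2389 lower, in place of 3769 and 3721. Medians of the members became 0.11, 0.25 and 0.14 with total counts, beside 0.08, 0.15 and 0.04 for all genes, and 0.18 after poly(I:C) with at least 50 counts required in 3 libraries. In the other settings the counts of calls stayed within 1.5 times. After poly(dA:dT), DESeq2 gave 15 higher and 11 lower, and edgeR scaled by DESeq2's size factors 17 and 11. The median of the members was 0.02 in both. Over all genes these gave 3078 higher and 3635 lower, and 3504 and 4061, with medians of -0.0071 and -0.0072.

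Leaving out 1 library gave 16 to 18 higher and 8 to 10 lower after poly(dA:dT), 26 to 28 and 10 to 12 after poly(I:C), and 25 to 26 and 9 to 11 between the treatments. The replicate numbers do not pair the libraries: deviations of same-numbered libraries correlated at -0.0138 to 0.0225. With the replicate block the counts were 18 and 9, 29 and 11, and 27 and 10. The block ended the call of Mcm2 after poly(I:C), at an adjusted p of 0.0592, and changed no other member's call.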

Other observations

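Several complexes outside the 46 genes had subunits whose transcripts moved apart. Of the origin recognition complex, Orc2, Orc3, Orc4 and Orc5 rose after both agents, by 0.37, 0.36, 0.67 and 0.80 after poly(I:C), where Orc1 changed by -0.13. Cdc7, the kinase that fires origins, changed by 0.39 (adjusted p = 4.22e-14) and 0.68 (adjusted p = 9.74e-33), and its activating partner Dbf4 by -0.22 (adjusted p = 1.2e-11) and -0.38 (adjusted p = 2.13e-25). Gmnn, geminin, which blocks Cdt1, changed by -0.19 (adjusted p = 5.37e-06) and -0.42 (adjusted p = 2.13e-19). Of polymerase delta, Pold3 changed by 0.25 (adjusted p = 9.87e-06) and 0.61 (adjusted p = 2.15e-22) and Pold4 by -0.14 (adjusted p = 0.0418) and -0.48 (adjusted p = 3.88e-11). In the single-strand binding complex RPA, the small subunit Rpa3 changed by -0.31 (adjusted p = 1.16e-06) and -0.73 (adjusted p = 3.42e-23) and the large subunit Rpa1 by -0.08 and -0.19. In RNase H2, Rnaseh2a and Rnaseh2b were not called, at -0.0033 and -0.03 after poly(I:C), beside the fall of Rnaseh2c. In each sentence the first value is for poly(dA:dT) and the second for poly(I:C) unless only the latter is named. These genes were picked after their values were seen, and no difference between subunits was tested.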
